A study of Caenorhabditis elegans with 10 samples.

Results

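The circRNA repertoire of whole wild-type *Caenorhabditis elegans* hermaphrodites on day 3 of adulthood was described from 141 back-splice junction loci, which are all rows of the count table. The study's own list of detected circRNAs is longer than this table, so each share, rank and number of loci per gene below holds within the rows of the table. The samples were the 5 wild-type replicates among the 10 samples of the series. The other 5 samples were *nova-1* mutants of the same age, and they entered no comparison. The rows of the table are common to all 10 samples, so which loci it holds may depend on the mutants too. How reads of each genotype entered the selection of loci is not stated, which bears most on loci with few wild-type counts. The wild-type strain was N2, and no transgene or added allele was named for it. All animals were fed *Escherichia coli* OP50 at 20 °C and moved as L4 larvae to plates with 5-fluorodeoxyuridine, a DNA synthesis inhibitor used to block progeny, so the RNA is that of whole adults treated with this drug. Total RNA was sequenced, and each value is the number of reads, after removal of duplicates, on a 200-nt scaffold that crosses one junction. The host gene of a locus is the gene that the study's list of circRNAs gives for it.

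A circular RNA forms when a downstream 5′ splice site is joined to an upstream 3′ splice site, so that an exon's end is ligated back onto its own start or onto that of an exon before it. The product has no free ends and is resistant to exonucleases, and circRNAs are known to accumulate with age in worms and in neural tissue of flies and mammals. Long introns beside the circularized exons, with sequences that pair with each other, are known to favor back-splicing in animals. A read crossing the junction is the only evidence in these data, and counts of junction reads do not show how much linear RNA the same gene made.

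The 2 loci of *crh-1*, the gene for the worm homolog of the transcription factor CREB, show what separates a pair of junctions in this table. Both are made from exon 4 alone and share the end of that exon, and they differ by 6 nt at its start. The study's outward-facing forward primers run across the junctions of both circRNAs, from the end of exon 4 into its start. They are shown because the 6 nt in capitals are the only difference between the RNAs, 5′ to 3′, on chromosome III:
cel_circ_0000438: cacagcccaaagTTTCAGtc
cel_circ_0000439: gcttcacagcccaaagtcag
The capitals mark the 6 bases present only in cel_circ_0000438. By letters alone the insertion could be placed in 4 ways, and the placement shown is the one in which it ends in AG, the dinucleotide at which worm introns end. In WBcel235 the exon starts at 11688126 in one transcript and at 11688132 in another, and it ends at 11688336 in both. The locus of cel_circ_0000439, which lacks the 6 bases, had 56, 139, 103, 113 and 155 counts in replicates 1 to 5, and the locus of cel_circ_0000438 had 29, 49, 30, 34 and 42. The shorter form was higher in 5 of 5 replicates and held 74.6 ± 5.16% of the *crh-1* counts (SD, n = 5). The sequences across both junctions differ only by these bases. A read aligned without covering them, such as a trimmed or clipped one, could be assigned to either locus. How many such reads were counted is not known.

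Between 7955 and 15014 counts per replicate fell on the 141 loci (median 8594), with the highest total in replicate 1. Replicates 1 to 5 had counts at 139, 139, 140, 141 and 139 loci, and 135 loci had at least 1 count in all 5 replicates. A count of 0 allows a share of up to 0.0200% of the counts in replicate 1 and up to 0.0377% in replicate 4, for counting error only. Replicate 1 stood apart from the others. Its Spearman correlations across loci with the other replicates were 0.575 to 0.624 (4 pairs), and those among replicates 2 to 5 were 0.824 to 0.884 (6 pairs), as a description over 141 loci that share library and depth. The measures of spread, and the means of the named loci that leaving out replicate 1 moves by over 1.5 times, are therefore given with and without it. Normalized counts are counts divided by the TMM effective library and scaled to its mean of 9736. The study's methods call the replicates independent, but no source used here says which were grown or prepared together, so the spread between them may be in part technical.

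The repertoire was dominated by a few loci. The single largest, *vit-6*, held 37.6 ± 5.69% of all counts (SD, n = 5), and the 3 largest held 52.8 ± 9.98%. Of these 3, *vit-6* and *col-181* each lie inside a single annotated exon, and their ends are not on a pair of annotated exon ends. Whether their counts come from back-splicing was not tested. The share of the 3 largest was 68.3, 53.6, 52.0, 49.1 and 40.8% in replicates 1 to 5. Replicate 1 was the highest and replicate 5 the lowest. The 10 largest held 65.5 ± 5.43%, the 20 largest 72.5 ± 3.62% and the 50 largest 84.8 ± 1.94%. The lower 70 loci together held 9.67%. The median locus had a mean normalized count of 21.9 (quartiles 13.5 and 37.4), and the largest was 173-fold above it. Above 100 normalized counts were 7 loci, between 50 and 100 were 20, between 20 and 50 were 54, between 10 and 20 were 39, and under 10 were 21.

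**Figure D1:**
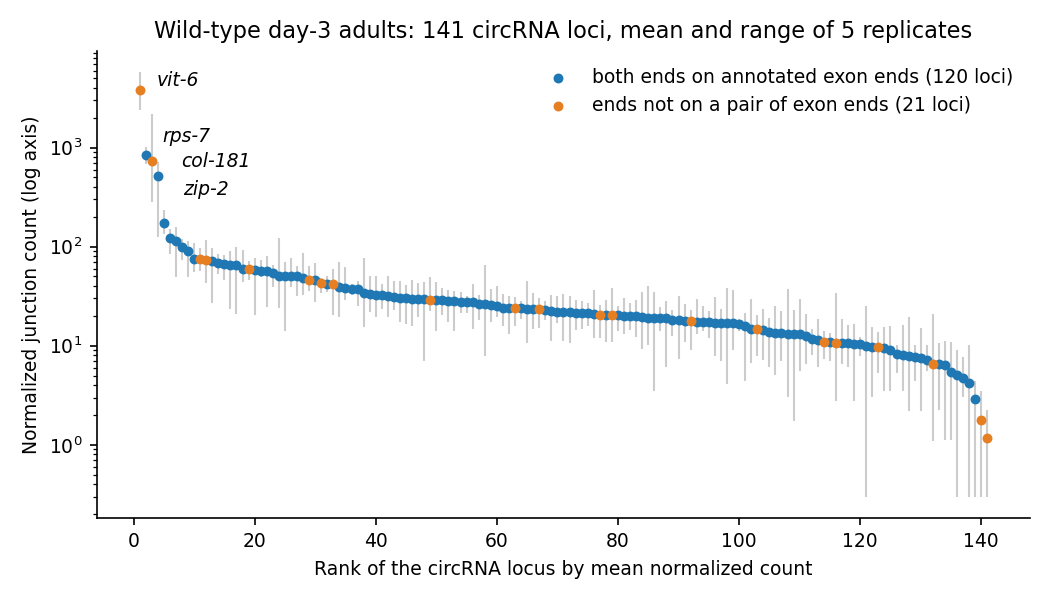
Mean normalized junction count (log axis) of each of the 141 loci against its rank, with grey lines for the range of the 5 wild-type replicates and a count of 0 drawn at 0.3. The 4 loci at the left, from *vit-6* at 3781 to *zip-2* at 514, stand above a slope on which most loci lie between 10 and 100. Orange points, which include *vit-6* and *col-181*, are loci whose ends are not on a pair of annotated exon ends.

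*vit-6* encodes a vitellogenin, a yolk protein precursor that the intestine of adult hermaphrodites makes in large amounts. Its locus had 6604, 4122, 3376, 2842 and 2338 counts in replicates 1 to 5, a mean of 3781 ± 1264 normalized counts. It was the largest locus in each of the 5 replicates. *rps-7*, which encodes a protein of the small ribosomal subunit, followed with 1168, 995, 626, 797 and 688 counts (846 ± 147 normalized). Its coefficient of variation was 17.4%, and no replicate of *rps-7* reached the range of *vit-6*.

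*col-181*, a member of the cuticle collagen family, had 2481, 399, 471, 266 and 279 counts, a mean of 730 ± 815 normalized, and 355 without replicate 1. Replicate 1 was 5.93-fold above the mean of the other 4, and the third rank of this locus rests on it. *zip-2*, which encodes a bZIP transcription factor known from the response to infection, had 142, 621, 580, 459 and 702 counts (514 ± 229 normalized). Replicate 1 was the lowest here, at 0.204 times the mean of the others. In replicates 2 to 5, *zip-2* was above *col-181* in 4 of 4, and in replicate 1 it was below.

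The following ranks lay much closer together. *Y61A9LA.3* had 270, 144, 121, 169 and 169 counts (173 ± 43.6 normalized), and *Y22D7AR.6* had 118, 91, 111, 133 and 148 (122 ± 29.0). *Y61A9LA.3* was the higher of this pair in 5 of 5 replicates in normalized counts, although their ranges overlapped. cel_circ_0000439 of *crh-1* ranked seventh at 115 ± 40.2. *gld-2*, a cytoplasmic poly(A) polymerase gene needed in the germline, had 137, 85, 66, 93 and 116 counts (98.9 ± 22.1 normalized). *gcn-1*, whose yeast homolog activates the translation regulator GCN2, had 56, 106, 81, 90 and 112 (90.3 ± 24.6 normalized). Replicate 1 was the highest of the 5 in *gld-2* and the lowest in *gcn-1*.

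Ranks 10 to 20 ran from *H06I04.6* at 75.1 ± 21.1 normalized counts to *afd-1* at 58.5 ± 22.9. In between were *fars-2*, a phenylalanyl-tRNA synthetase gene (74.7 ± 16.4), *sec-23*, a COPII vesicle coat gene (72.6 ± 29.5), *C04E7.3* (71.7 ± 26.5), *Y53F4B.39* (69.1 ± 11.7), *zip-12*, another bZIP gene (66.1 ± 13.1), and *mbk-2*, a DYRK family kinase of the oocyte-to-embryo transition (66 ± 25.3). A pair of loci of *Y105E8A.25* had 65.8 ± 29.2 and 59.6 ± 20.2, and *Y92H12BL.10* had 59.1 ± 11.8. The order of these loci is not resolved. Over the 19 neighbouring pairs among the 20 largest loci, the upper locus was above the lower one in 5 of 5 replicates in 2 pairs, in 4 of 5 in 7 pairs, and in 3 or fewer in the other 10. Only *vit-6* and *rps-7* were neighbours whose ranges did not overlap.

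**Figure D2:**
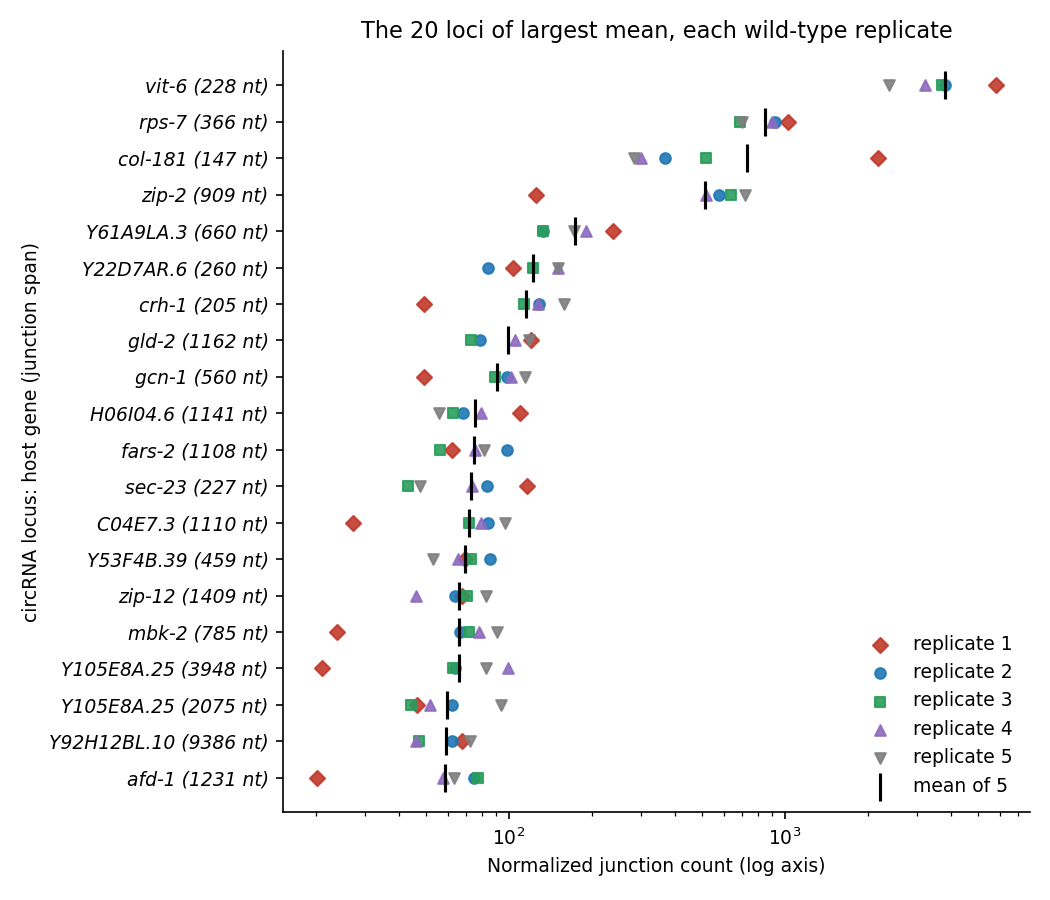
Normalized junction counts (log axis) of the 20 loci of largest mean in each of the 5 wild-type replicates, with the mean as a black bar and each locus named by its host gene and span. Replicate 1 (red diamonds) is to the right at *vit-6* and *col-181* and to the left at *zip-2*, *crh-1*, *mbk-2* and *afd-1*, where replicates 2 to 5 lie close together.

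The smallest loci had only a few counts per replicate. The 5 smallest loci were *cogc-1*, a Golgi tethering complex gene (4.68 normalized counts), *pqn-80* (4.18, and 2.78 without replicate 4), *egl-43*, a zinc finger transcription factor gene (2.91), *gei-4* (1.80) and *ddx-19*, whose yeast homolog is an mRNA export helicase (1.17). At least 1 replicate had a count of 0 at 6 loci, and 4 of the 5 smallest loci were among them. *ddx-19* was at 0 in both replicate 3 and replicate 5. At the other end of this scale, 88 loci had 10 or more counts in every replicate.

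The spread between replicates was set against counting error locus by locus. A chi-square test of homogeneity of the 5 counts, with Benjamini–Hochberg adjustment over the 134 loci with an expected count of 5 or more in each replicate, called 74 loci, or 55.2%. Without replicate 1, it called 21 of 133, or 15.8%. The common biological coefficient of variation, which is the spread between replicates left after counting error, was 0.381 with all 5 replicates and 0.204 without replicate 1. Among the 82 loci with a mean of 20 or more counts, the median coefficient of variation of normalized counts was 31.4% with replicate 1 and 22.3% without it.

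**Figure D3:**
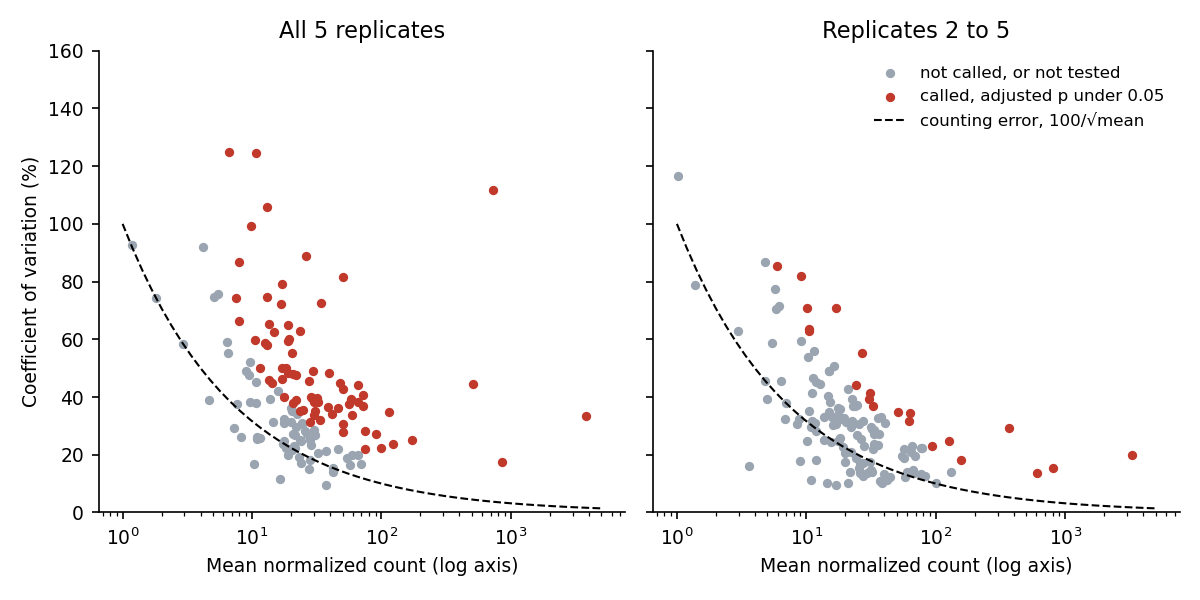
Coefficient of variation of normalized counts against the mean (log axis) for all 5 wild-type replicates (left) and for replicates 2 to 5 (right), one point per locus, with the dashed line at the spread that counting error alone gives. Of the loci tested, 74 are called (red) on the left and 21 on the right, where most points lie near the line.

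Replicate 1 was at an extreme of most loci that varied. Of the 74 called loci it was the highest replicate in 34 and the lowest in 27, and each of the other replicates was at an extreme of 15 to 28. Over all 141 loci, replicate 1 was the highest at 46 and the lowest at 51. Against the mean of the other replicates it was high, at 7.06-fold, for *clik-2* (24, 6, 1, 2 and 3 counts, with a mean of 6.61 normalized and 2.88 without replicate 1), and at 3.72-fold for *Y65B4A.6*, annotated as the exon junction complex helicase gene *eif-4A3* (139, 30, 22, 45 and 28 counts, with a mean of 50.6 normalized and 31.6 without replicate 1). It was low, at 0.310, for *mbk-2* (27, 72, 65, 69 and 89 counts), and at 0.297 for *afd-1*, the worm afadin gene (23, 81, 70, 51 and 62 counts). *lev-11*, the tropomyosin gene, was also high, with 43 counts against 9, 8, 7 and 3, and is named because of its values, outside the rule for naming loci. The deviations thus ran in both directions, and a single factor for the library does not remove them.

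The deviations of replicate 1 were also counted by the ID of the locus. At the 118 loci whose ID in the study's list begins with cel_circ, the median log2 ratio of replicate 1 to the others was −0.31. These include 27 loci whose ID begins with cel_circ_new. Replicate 1 was the highest at 32 and the lowest at 48 of the 118. At the loci that the study named ce11_new, the median log2 ratio was 0.76, and replicate 1 was the highest at 13 and the lowest at 2 of these 20. These are descriptions of 1 library, and their part in the counts of called loci was not tested.

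The loci that varied least between all 5 replicates were of middling level. *Y50D7A.3* had 43, 45, 32, 29 and 39 counts, with a coefficient of variation of 9.42%. *rin-1*, a gene of the Ras and Rab interactor family, followed at 13.9%, and *npp-8*, a nuclear pore protein gene, at 15.1%. *K02D10.1* had 15.6% and *tbc-17*, of the TBC family of Rab GTPase-activating proteins, 16.4%. At these means, counting error alone gives a similar spread. At the other end were *col-181* (112%, and 29.2% without replicate 1), *tbc-9* (88.9%, and 50.7% without, with a mean of 26.2 normalized counts and 15.7 without), *Y65B4A.6* (81.5%, and 36.9% without), the 742-nt locus of *Y105E8A.25* (72.5%, and 37.0% without) and *Y92H12BR.3* (62.7%, and 55.4% without). *Y92H12BR.3* had 12, 12, 29, 40 and 19 counts, and replicate 4 was its highest. It was the only one of these 5 whose spread changed little when replicate 1 was left out.

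Of the 141 loci, 138 were linked to a host gene, and 103 of the 117 host genes had a single locus. With 2 loci there were 11 genes, with 3 loci 1 gene, and with 5 loci 2 genes. The 14 genes with more than 1 locus had 35 loci, which held 13.2 ± 2.96% of the counts (SD, n = 5). At 6 places in the table a pair of loci of equal span was shifted by 1 nt. These pairs belonged to *afd-1* (2 pairs), *lin-1*, *F54A3.2*, *Y71G12B.2* and *Y92H12A.4*, annotated as *ints-3* of the Integrator complex. Their scaffolds are almost the same sequence, so the split of reads within a pair cannot be interpreted. Summed, the pair of *Y92H12A.4* had 46.7 ± 11.3 normalized counts, that of *Y71G12B.2* 39.8 ± 9.13, that of *lin-1* 22.6 ± 5.94 and that of *F54A3.2* 20 ± 5.17. Counted once, they leave 135 loci, and 10 genes with more than 1.

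*Y105E8A.25* had the most counts of the genes with 3 or more loci, 226 ± 34.0 normalized over its 5 loci. In transcript *Y105E8A.25b.1*, of 24 exons, 3 of these loci begin at exon 2. One ends at exon 5, one at exon 6 and one at exon 10, and a further locus runs from exon 3 to exon 5 and the last from exon 12 to exon 14. The locus of exons 2 to 6 had 24, 69, 57, 88 and 81 counts, and that of exons 2 to 5 had 53, 67, 40, 46 and 92. The first of these was the largest of the gene in 3 of 5 replicates and held 29.2 ± 12.2% of its counts, so no single junction led the gene. The locus of exons 3 to 5 had 87 counts in replicate 1 and 14 to 31 in the others, and the same replicate was the lowest for exons 2 to 6. The total of the gene varied less (15.1% coefficient of variation) than either of these loci (72.5 and 44.3%).

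*afd-1* had 5 rows, which are 3 distinct junctions once the 1-nt pairs are summed. All 5 end at exon 8 or exon 9 of a 20-exon transcript. The pair at exons 7 to 9, summed, had a mean of 109 ± 44.1 normalized counts and would rank eighth. Summed, it held 65.3 ± 10.2% of the counts of the gene, between 48.1 and 73.4% in every replicate. The locus of exons 7 and 8 was at 28.7 ± 6.67, with 23, 28, 35, 26 and 29 counts, and the pair at exons 6 to 9, summed, was at 23.1 ± 8.63. *pqn-41*, which encodes a glutamine-rich protein, had 3 loci with 32.2 ± 12.4, 29.8 ± 14.6 and 20.2 ± 7.10 normalized counts. Its junctions at exons 15 to 16 and 15 to 17 share a start, and the locus at exons 20 to 21 lies apart. The apart locus had 8 counts in replicate 1 and 28 to 40 in the others.

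Of the 11 genes with 2 loci, 4 had only a pair shifted by 1 nt. In 5 of the other 7, the same locus was the higher in 5 of 5 replicates. In *Y61A9LA.3* the locus of exons 2 and 3 held 95.9 ± 2.91% of the counts. In *fars-2* the larger locus held 77.6 ± 7.70%, in *zip-12* 76.4 ± 6.45% and in *gap-2*, a Ras GTPase-activating protein gene, 69.5 ± 8.20%. The fifth of these genes was *crh-1*. In *denn-4* (a Rab regulator gene) and in *tbc-9* the leading locus held 57.9 ± 14.6% and 54.2 ± 11.9%, and it was the higher, or tied, in 3 replicates of each. For these last genes the order of the loci is within the replicate spread. Of the 23 pairs of loci within a host gene that were not 1-nt copies, 6 shared their higher genomic coordinate to within 1 nt. Another 4 shared the lower one, 3 were nested and 10 lay apart. This count takes no account of strand. In *Y105E8A.25* and *fars-2*, which lie on the minus strand, the higher coordinate is the upstream end in the transcript.

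**Figure D4:**
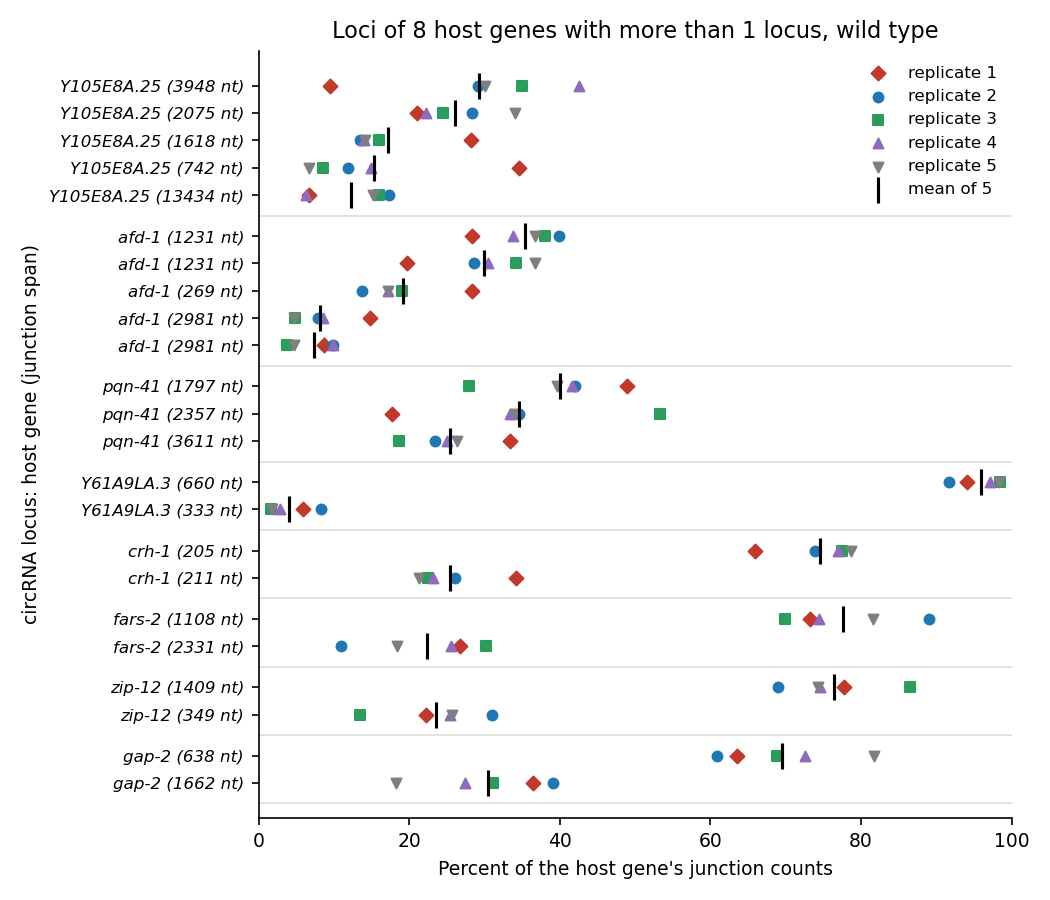
Percent of a host gene's junction counts at each of its loci in the 5 wild-type replicates (symbols) with the mean as a black bar, for 8 host genes with more than 1 locus. In *Y61A9LA.3*, *crh-1*, *fars-2*, *zip-12* and *gap-2* the upper locus holds over 60% in every replicate, and in *Y105E8A.25* and *pqn-41* the ranges of the leading loci overlap. The upper 2 rows of *afd-1* are 1-nt copies of one junction.

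The junctions were set against the exons annotated in WBcel235 (Ensembl release 115). A pair of exon ends was accepted when both ends of the locus lay at the same offset from it, at most 150 nt, with a span equal to within 1 nt. At 120 of the 141 loci (85.1%) such a pair existed. The offset was 0 at 13 of them and between −3 and 120 nt at the rest, was equal at both ends at 115, and grew along each chromosome, for example over 0 to 120 nt on chromosome III. The coordinates of the table are thus not those of WBcel235 at most loci. Exon positions below are those of WBcel235, and the positions of the table were not converted.

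The 120 loci on exon ends held 50.5 ± 10.0% of the counts (SD, n = 5), and the other 21 held 49.5 ± 10.0%. In replicates 1 to 5 the share of the 21 was 65.3, 49.8, 50, 44.5 and 38.2%, so replicate 1 was the highest. This share came almost entirely from *vit-6* and *col-181*, whose loci each lie inside a single annotated exon. Without them, the remaining 19 loci held 5.41 ± 0.445%. These 19 include *fars-2*, *sec-23* and *Y92H12BL.10* among the 20 largest. Of the 118 loci with a cel_circ ID, 112 were on exon ends. Of the 20 ce11_new loci, 8 were. One of these 8 is listed by the study under the ribosomal RNA gene *rrn-3.1*, but its ends lie at exon 22 of *hmr-1*, the cadherin gene, and it had 48.0 ± 21.6 normalized counts (named because of this mismatch).

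By annotation, most junctions enclosed few exons and lay inside the gene. Where transcripts differed, one with the fewest exons inside was preferred, which favors low exon numbers. Junction reads do not show which inner exons or introns a circle holds. A single exon was enclosed at 44 loci, 2 exons at 32, 3 at 27 and 4 or more at 17, with a maximum of 9 in *Y105E8A.25*. At 107 of the 120 loci the exons were entirely coding, at 12 partly, and at 1 (*gap-2*, 1662 nt) not. The first exon of the transcript was included at 7 loci and the last exon at none, and 21 loci began at exon 2. The exons enclosed at a locus summed to a median of 396.5 nt (quartiles 309 and 543.75, range 180 to 2395). Single circularized exons had a median of 341 nt, against 166 nt for the 144480 annotated exons of protein-coding genes. The shortest of these single exons was 193 nt, which is above the median of all annotated exons. Whether circles of shorter exons could have been detected was not tested, so the medians are not directly comparable. The junction of *rps-7* enclosed exons 2 and 3 of 4 (10331111 to 10331476 on chromosome I), and that of *zip-2* exons 3 to 5 of 6 (834305 to 835213 on chromosome III). The junction of *gld-2* enclosed exons 10 to 12 of 20 (6377543 to 6378704 on chromosome I), and that of *gcn-1* exon 14 of 28 (2178449 to 2179008 on chromosome III). *C04E7.3* had the longest single circularized exon, exon 3 of 11, at 1110 nt.

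The introns beside these loci were long for a worm. Their median was 1379 nt (quartiles 748 and 2554, 233 introns), against 68 nt (quartiles 48 and 357) for the 109516 introns of protein-coding genes. An intron beside several loci was counted once for each locus, and each of the 109516 introns was counted once. At least 500 nt were measured in 83.7% of the introns beside loci and in 18.6% of all introns. At least 1000 nt were measured in 60.9% of the introns beside loci and in 7.75% of all introns. Of the 113 loci with an intron at each side, 88 had both at 500 nt or more and 13 had both under 500 nt. At 82 of the 112 loci whose gene had other introns, both flanking introns were longer than the median of these others. The others were taken over all annotated transcripts of the gene, and the median over loci of their medians was 625 nt. The other introns of the host genes were thus also long against the 68 nt of all introns. Part of the contrast between 1379 and 68 nt therefore lies between genes, and the contrast within host genes was smaller. These are lengths of the annotation, and genes were not matched for expression or length.

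**Figure D5:**
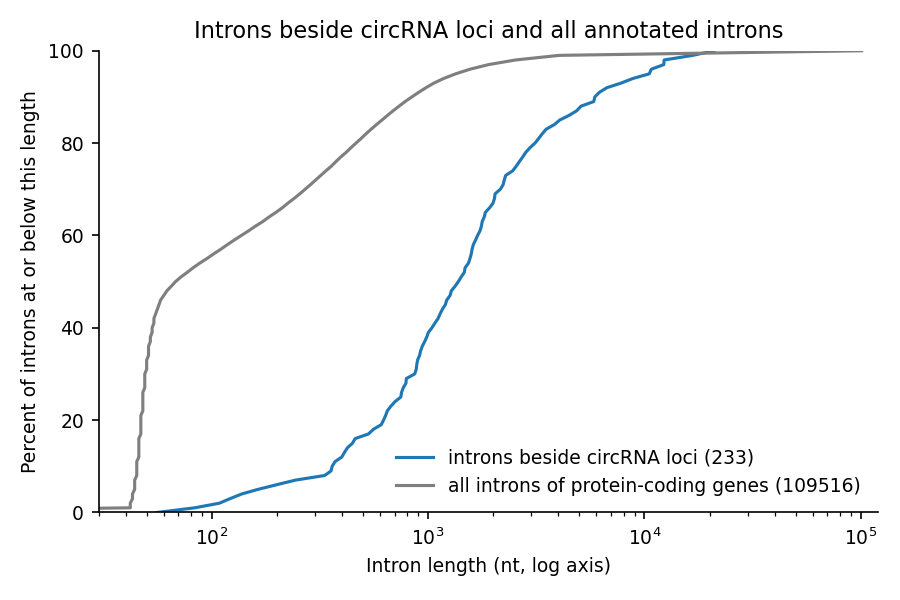
Percent of introns at or below each length (log axis), for the 233 introns beside circRNA loci on exon ends (blue) and the 109516 annotated introns of protein-coding genes (grey). At or above 500 nt lie 83.7% of the introns of the blue curve and 18.6% of those of the grey curve. An intron beside several loci is repeated in the blue curve.

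The 2 largest loci on exon ends were exceptions. *rps-7* lies between introns of 75 and 102 nt, and *zip-2* between introns that are both at most 130 nt. The 13 loci with both introns under 500 nt held 17 ± 3.25% of the counts, and without *rps-7* and *zip-2* the other 11 held 2.76 ± 0.292%. The 88 loci with both introns at 500 nt or more held 29.7 ± 6.58%. Across loci, flanking intron length and mean normalized count were nearly unrelated (Spearman 0.12). The longest flanking intron was beside *lin-1*, an ETS transcription factor gene, at 20948 nt, and the 3 *Y105E8A.25* loci that begin at exon 2 share an intron of 12284 nt.

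The genomic span of a junction, from its start to its end, had a median of 641 nt (quartiles 350 and 1452, range 147 to 13434). Under 500 nt were 58 loci, 27 lay between 500 and 1000 nt, 33 between 1000 and 2000 nt, and 23 at 2000 nt or more. Span and mean normalized count were unrelated across loci (Spearman −0.025). Weighted by counts, the median span was 228 to 366 nt over the replicates, and without *vit-6*, *rps-7* and *col-181* it was 660 to 909 nt. Loci under 500 nt held 67.8 ± 7.78% of the counts, those of 500 to 1000 nt 14.8 ± 4.20%, those of 1000 to 2000 nt 11.4 ± 1.94%, and those of 2000 nt or more 5.95 ± 1.67%. Without the same 3 loci, the loci under 500 nt held 32.3 ± 2.48% of what remained.

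The 3 shortest loci were *col-181* (147 nt), *clik-2* (153 nt) and *klf-1* (193 nt), a gene of the Krüppel-like factor family. The junction of *klf-1* encloses a single exon and had 0, 4, 8, 8 and 4 counts. The 3 longest were *Y105E8A.25* (13434 nt), *gei-4* (12994 nt) and *tra-1* (10835 nt), the terminal regulator gene of sex determination. *tra-1* had 20, 34, 27, 23 and 36 counts, and its 6 exons sum to 824 nt. The long span of this junction is thus mostly intron, as it is for the *Y105E8A.25* junction, whose 9 exons sum to 1533 nt.

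The repertoire was uneven over the chromosomes. Chromosome I had 40 loci and 21.1 ± 2.78% of the counts, and chromosome III had 32 loci and 17.1 ± 5.48%. Chromosome IV had 24 loci and 42.1 ± 4.92% of the counts, most of them from *vit-6*. Chromosome X had 6 loci and 8.40 ± 5.26%, most of them from *col-181*. Chromosomes V and II had 21 and 18 loci, with 7.27 ± 0.698% and 4.10 ± 0.812%.

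Host genes were grouped by role in 10 lists of 96 genes, which were drawn up with the host gene names known, and the 71 loci of these lists were set beside the median of 21.9 over all 141. Transcription factor genes gave 20 loci from 17 of 26 listed genes, with a median of 18.7 normalized counts, from *egl-43* at 2.91 to *zip-2* at 514. Small GTPase regulators gave 14 loci from 7 of 10 listed genes, with a median of 36.3, from *denn-4* at 13.7 to *Y105E8A.25* at 65.8. Of the 14, 10 were among the upper 70 of the 141 loci, and of the 20 transcription factor loci 8 were. *Y105E8A.25* alone gave 5 of the 14 loci of small GTPase regulators, each above the overall median. Translation genes gave 5 loci with a median of 74.7, from the tryptophanyl-tRNA synthetase gene *wars-1* at 16.9 (11.1 without replicate 1) to *rps-7*. Cell junction and cytoskeleton genes gave 9 loci with a median of 23.8, which both began and ended with rows of *afd-1*.

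The smaller lists lay on both sides of the overall median. RNA processing and decay genes gave 7 loci with a median of 12.6, from *ddx-19* to *gld-2*, and membrane traffic genes 3 loci with a median of 13.5, from *cogc-1* to *sec-23*. Genes of glycan enzymes gave 5 loci with a median of 33.4, from *gly-7*, a GalNAc transferase gene (13.5), to *aagr-2*, an acid alpha-glucosidase family gene (45.9). The neuronal and sensory genes gave 4 loci with a median of 23, from *rimb-1*, a presynaptic scaffold gene (7.92, and 5.03 without replicate 5), to *daf-25*, needed for sensory cilia (46.5). Protein kinases gave *mbk-2* at 66 and *max-2*, a PAK family kinase, at 29.9, and the yolk and cuticle list gave *vit-6* and *col-181*, which held 44.1 ± 10.4% of the counts.

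Among tested loci, 9 of 18 of the transcription factor list and 9 of 14 of the small GTPase list were called with all 5 replicates, against 74 of 134 overall. Without replicate 1, 1 and 3 loci of these lists were called, against 21 of 133 overall. Nothing particular to the lists is read from these counts. In whole animals, more RNA per cell and more cells of the type that makes it cannot be told apart.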

How the data were processed

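Total RNA of 5 wild-type day 3 samples was sequenced with paired-end reads. The authors aligned reads with HISAT2, realigned unmapped reads with BWA, predicted loci with CIRI2, dropped loci under 12 junction reads, mapped reads to 200-nt scaffolds with Bowtie2, removed duplicates with Picard and counted with featureCounts. The authors deposited these raw counts, not normalized and not pooled, and all 10 columns matched a sample.

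Columns of the 5 wild-type samples were normalized with TMM in edgeR 4.0.16 (R 4.3.3), whose intercept-only dispersion gave the biological coefficient of variation. Homogeneity over replicates was tested by chi-square with Benjamini–Hochberg adjustment at 0.05, for loci with an expected count of 5 or more, and the procedure was tested on simulated data. Normalized counts are relative within these 141 loci. With totals of 7955 to 15014 counts, loci with a few counts have wide errors, and limits given for counts of 0 (3 counts) cover counting error only.

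Loci were linked to the study's circRNA list by identical coordinates (112) or, failing that, to the one row whose start was at most 150 nt away and whose span differed by at most 1 nt (26). The list's own columns of genotype comparisons were not used. Exons came from the WBcel235 annotation. Where several transcripts held the pair of exon ends, one coding over these exons was taken, and among those one with the fewest exons inside.

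Named are the 20 largest and 5 smallest loci, all loci of host genes with 3 or more, the larger locus of those with 2, the 5 largest and 5 smallest coefficients of variation at a mean of 20 or more counts, the 3 shortest and 3 longest spans, and the extremes of each list. The loci, lists and rule were chosen with earlier results of these data known. Alternatives were RLE factors, column totals, TMM over all 10 columns, a mean of 10 counts as a filter, library sizes from all sequenced reads, summing loci within 2 nt, links by identical coordinates only, and leaving out each replicate.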

Additional observations from a re-analysis of the deposited data

Results flagged for a closer look

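In 4 of 61 sets of 5 replicate values examined (59 named loci, the library totals and the share of the 3 largest loci), 1 replicate lay far from the other 4, and chance alone gives about 1 in 20 such sets. That rate does not hold for loci named for their spread, which *col-181* and *Y65B4A.6* were. In 3 of the 4 it was replicate 1, each time the highest. *col-181* had 2179 normalized counts in replicate 1 and 284 to 519 in replicates 2 to 5. *Y65B4A.6* (*eif-4A3*) had 122 in replicate 1 and 24.2 to 50.7 in the others. *clik-2* had 21.1 in replicate 1 and 1.10 to 5.54 in the others. The *gap-2* locus of 638 nt had 77.2 in replicate 5 and 38.8 to 47.4 in the others.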

How the results depend on the processing

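Leaving out each replicate in turn moved the number of loci varying beyond counting error over a range of 21 to 74, against 74 with all 5. The value of 21 is that without replicate 1, and without any other replicate it was 66 to 74. The cause of what sets replicate 1 apart was not tested. The common biological coefficient of variation ranged from 0.204 without replicate 1 to 0.417 without replicate 3, against 0.381. The choice of normalization gave 72 (RLE), 75 (TMM over 10 columns), 79 (sequenced reads) and 93 (column totals) varying loci. The share of the 3 largest loci was 51.7 to 55.8% and that of the 20 largest 71.1 to 73.6% when a replicate was left out. The loci were ranked again each time, and without replicate 1 *zip-2* replaced *col-181* among the 3 largest. *vit-6*, *rps-7* and *col-181* themselves held 53.6, 52.0, 49.1 and 40.8% in replicates 2 to 5. Of the 20 largest loci, 18 to 20 were shared under these alternatives. Of the means of the 59 named loci, 5 moved by over 1.5 times without replicate 1 (*col-181* to 355, *Y65B4A.6* to 31.6, *tbc-9* to 15.7, *wars-1* to 11.1 and *clik-2* to 2.88). Another 2 did so without a different replicate (*rimb-1* to 5.03 without replicate 5 and *pqn-80* to 2.78 without replicate 4). Under RLE factors, column totals or TMM over 10 columns, none of these means moved by more than 1.13 times. Alternatives chosen after seeing the data were TMM over 10 columns for ranks and means, the flanking intron taken, and the tolerances of the exon match. Of all 141 loci, 58 had a pair of exon ends with an offset of at most 10 nt, 117 with an equal span and 122 with a span within 2 nt, against 120. Taking the shortest flanking intron over transcripts gave a median of 1286 nt. Host genes with 2 or more loci numbered 11 with identical links only and 10 with near-identical loci summed. No paired analysis was possible because only the wild-type samples were described and no test between groups was made.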
